A study of Mus musculus with 20 samples.

Results

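Lipid-associated macrophages (LAMs) are macrophages that collect around dying, lipid-laden adipocytes in obese fat, where they take up and digest lipid. Their program is read here from 9 genes, Trem2, Cd9, Gpnmb, Spp1, Mmp12, Lgals3, Atp6v0d2, Itgax and Cd63, which were taken by symbol from the 46078 genes of a translating ribosome affinity purification (TRAP–seq) table of epididymal adipose tissue (epiAT). The table held 9 of the 9 genes, and 9 of the 9 were among the 21464 genes that passed the filter on low counts.

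The libraries came from 20 male AdipoERCre x NuTRAP mice on a background labelled C576BL6. The Cre is tamoxifen-inducible and driven by the adiponectin promoter, and it turns on a GFP-tagged ribosomal protein together with labelled nuclei in adipocytes. Mice in each of the groups carried these alleles and received tamoxifen, controls included. In the short arm, C mice ate chow and H mice ate high-fat diet (HFD) for 12 weeks, and both were 18 weeks old. HC mice had 12 weeks of HFD and then 8 weeks of chow, which caused weight loss (WL), and their chow controls were CC_s, both at 26 weeks of age. Each of these 4 groups had 3 mice. In the long arm, HH mice had 25 weeks of HFD and were compared with CC_l on chow, both at 31 weeks of age. HHC mice had 25 weeks of HFD and 8 weeks of chow and were compared with CCC on chow, both at 39 weeks of age. Each of these 4 groups had 2 mice. According to the paper, C and CC_l ate a low-fat chow, and CC_s and CCC were switched to the standard chow of the WL mice. Age and kind of chow therefore cannot be told apart between the control groups of an arm. The library labels of the 2 arms begin with different prefixes, whose meaning is not given, so arm and age cannot be told apart, and the comparisons were made within an arm, against chow mice of the same age.

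TREM2 is a surface receptor for lipids and lipoproteins that signals through the adaptor TYROBP. The LAM program also includes the tetraspanins CD9 and CD63, the integrin chain CD11c (Itgax), lysosomal proteins (Gpnmb, Atp6v0d2) and secreted proteins (Spp1, Mmp12, Lgals3). Several of these genes are not private to macrophages: Cd63, Cd9 and Lgals3 are made by many cell types, adipocytes included. The pulldown was aimed at adipocyte ribosomes in a lysate of the whole depot, and in such bulk samples more macrophages and more RNA per macrophage cannot be told apart, nor can either be told apart from unbound RNA of other cells carried through the pulldown.

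Counts on genes totalled 10710300 to 36739000 per library, at which depth a count of 3 stood at 0.0815 to 0.251 CPM, the counts of a gene scaled to a common library size after TMM normalization. The 8 adipocyte markers (Adipoq, Plin1 and others) were detected in each of the 20 libraries, and the 10 general macrophage markers (Adgre1, Csf1r, Cd68, Lyz2 and others) were too. Libraries from 2 mice stood apart. HC mouse 3 had a summed adipocyte marker level of 4596 CPM, against 20471 and 26439 CPM in the other HC mice, and a summed level of 434 CPM for 5 spermatid genes. CC_l mouse 1 had 3114 CPM of these spermatid genes, against 9.04 CPM in CC_l mouse 2. Values with each of these 2 libraries left out are given after the comparisons of effects.

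Of the 9 LAM genes, 6 were called up on the shorter and 2 on the longer HFD, although each of the 9 was higher in each HH mouse than in each CC_l mouse. After WL, 5 were called up in HC and none in HHC, and the count in each of these 4 comparisons depended on the processing. A gene was called a DEG where edgeR gave a nominal p under 0.01 and a change of 1 or more on the log2 scale, in either direction. In H against C, 6 of 9 were called up (Trem2, Cd9, Gpnmb, Mmp12, Atp6v0d2 and Itgax), against 3.57% of all genes tested. In HC against CC_s, 5 of 9 were called up (Trem2, Gpnmb, Mmp12, Atp6v0d2 and Itgax), against 1.57% of all genes. In HH against CC_l, 2 of 9 were called up (Trem2 and Cd9), against 4.92%. The HH count was 5 in DESeq2, where 4.19% of all genes were called up, 7 without a filter on low counts, where 4.24% were, and 6 without CC_l mouse 2. In HHC against CCC, 0 of 9 were called by edgeR, 0 of 9 by DESeq2 and 0 of 9 had a nominal p under 0.05 in edgeR, where 0.447% of all genes were called up and 10.7% had a nominal p under 0.05. Without a filter 4 of 9 were called in HHC, Mmp12, Atp6v0d2 and Itgax up and Spp1 down, where 1.1% of all genes were called up and 2.57% down. When HHC and CCC were fitted alone, 1 was called up, Mmp12, where 0.392% of all genes were. In the fit of all libraries none of the 9 was called down in these 4 comparisons, where 2.92%, 0.172%, 1.88% and 2.67% of all genes were. The median log2 fold change of the 9 genes was 3.33 in H and 3.35 in HC, against -0.15 and 0.27 for all genes tested. HH had a median of 2.73 and HHC of 0.56, against -0.23 and -0.06. With Benjamini-Hochberg adjustment over all genes tested, fewer calls were left: Itgax in H (1 of 9, where 1.28% of all genes were called up), Cd9 in HH (1 of 9, where 1.75% were), and none in either WL group, where 0% of all genes passed.

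**Figure D1:**
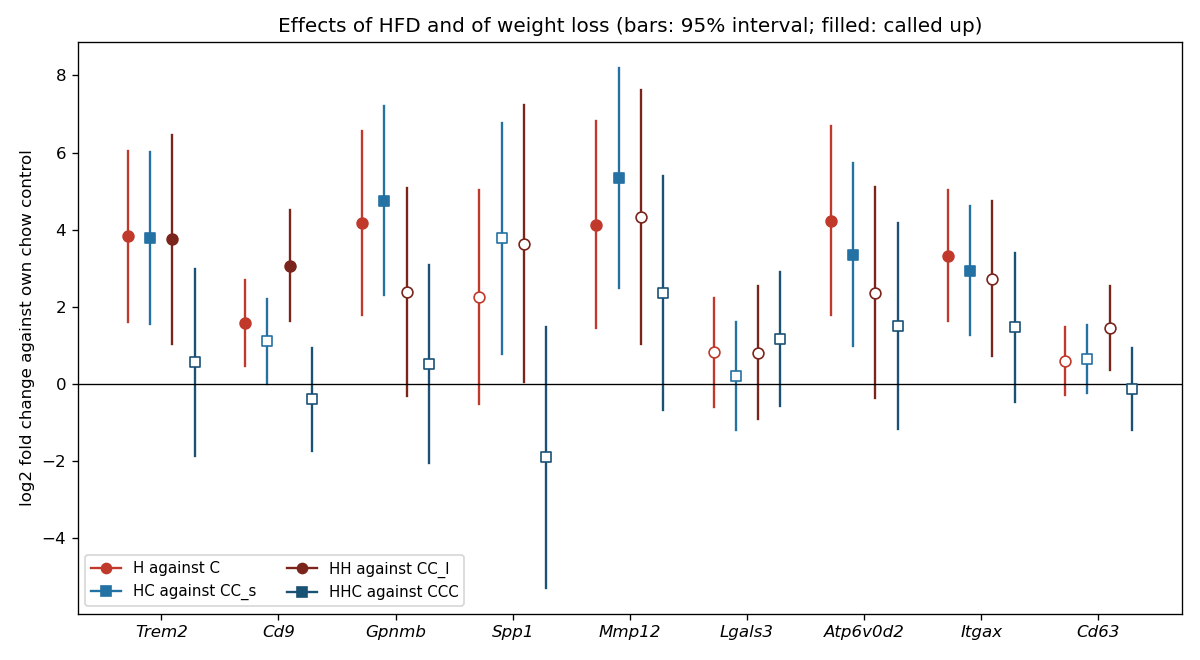
Log2 fold change of each of the 9 LAM genes against its own chow control, with the 95% interval of the edgeR fit as bars; circles are the HFD groups, squares the WL groups and filled symbols the genes called up. In HHC against CCC the interval of each gene includes 0, whereas in HC against CC_s the intervals of Trem2, Gpnmb, Spp1, Mmp12, Atp6v0d2 and Itgax lie above 0.

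Trem2 (ENSMUSG00000023992) lies on the forward strand of chromosome 17, chr17:48346401-48354147 in mm10, and encodes the receptor that defines the LAM state. In the short arm it stood at 5.66, 9.13 and 2.69 CPM in C and at 73.4, 160 and 14.4 CPM in H. After WL it stood at 5.82, 3.65 and 1.33 CPM in CC_s and at 16.1, 24.3 and 109 CPM in HC. Each H mouse was above each C mouse, and each HC mouse above each CC_s mouse. Trem2 rose 14.2-fold in H (log2 fold change 3.83, SE 1.05, n = 3 against 3, adjusted p = 0.0683) and was 13.8-fold higher in HC (3.79, SE 1.06, adjusted p = 0.536). In CC_l and HH, the values were 1.16 and 30.9 CPM against 167 and 260 CPM. After WL it stood at 40.9 and 20.2 CPM in CCC and at 56.3 and 33.7 CPM in HHC. The 2 HH mice had the highest Trem2 levels of the 20, and the HHC mice overlapped their controls. The log2 fold change was 3.75 in HH (SE 1.28, adjusted p = 0.142) and 0.56 in HHC (SE 1.15, 95% interval -1.87 to 2.99, adjusted p = 0.912).

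Ordered by their mean, Trem2 levels ran from HH (214 ± 65.9 CPM, SD) through H (82.6 ± 73.2), HC (49.8 ± 51.3), HHC (45.0 ± 16.0), CCC (30.5 ± 14.6), CC_l (16.0 ± 21.0) and C (5.83 ± 3.22) to CC_s (3.60 ± 2.25). Neighbours in this order overlapped in their mice, with the exception of HH and H. HC mouse 3, at 109 CPM, set the HC mean: HC mice 1 and 2 (16.1 and 24.3 CPM) were below both HHC mice (33.7 and 56.3 CPM). Among the controls, CCC mice ranged from 20.2 to 40.9 CPM and CC_s mice from 1.33 to 5.82 CPM. These groups belong to different arms and ages, so their levels are set side by side without a test.

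**Figure D2:**
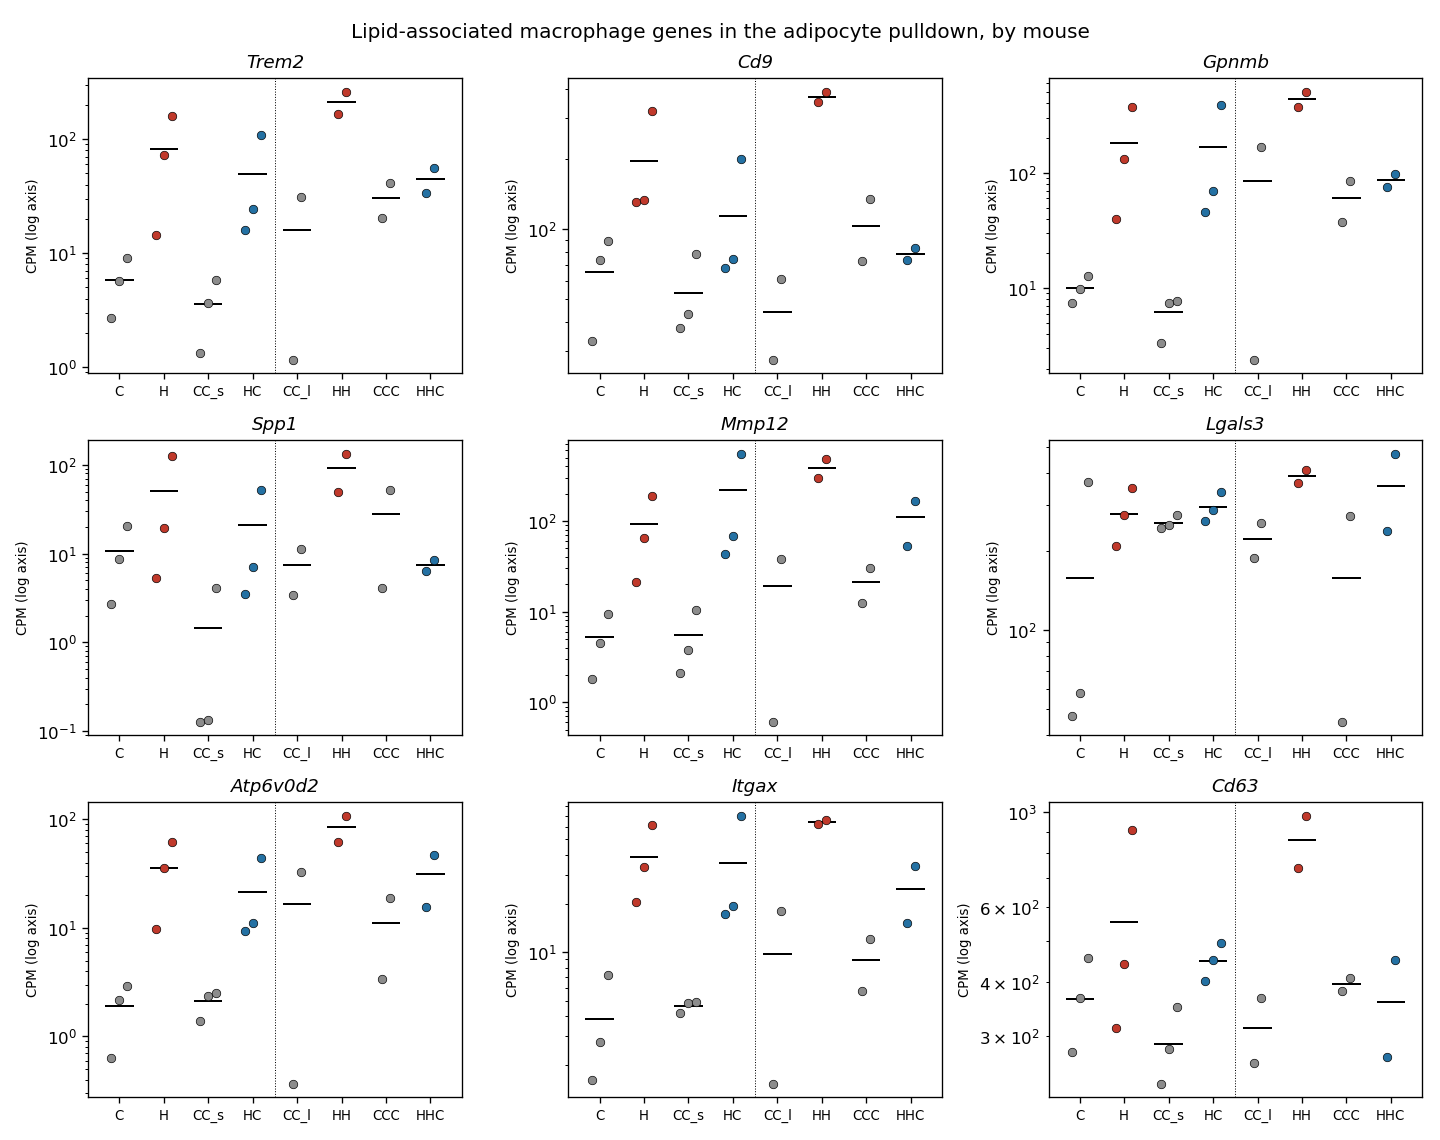
Level of the 9 LAM genes in each of the 20 mice, in CPM on a log axis that differs between panels; points are mice, sorted by value within a group, short lines are group means, grey is chow, red HFD and blue WL, and the dotted line divides the short from the long arm. Trem2 in HC (16.1 to 109 CPM) lies above CC_s (1.33 to 5.82 CPM), whereas in HHC (33.7 and 56.3 CPM) it overlaps CCC (20.2 and 40.9 CPM).

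Several of the LAM genes moved together, and Lgals3 less so. The sequence around the start sites of the 9 genes was searched for 5 motifs of factors that act in macrophages, on both strands. RefSeq gave windows of 300 bases (build GRCm38.p6) for 8 of the 9 genes, 10 windows in all; none was given for Atp6v0d2. An AP-1 motif (TGACTCA) was found in windows of 3 genes, Gpnmb, Itgax and the second start of Mmp12, and in 5.2% of 32851 mouse promoter windows. A PU.1 motif (GAGGAAGT, in 3.2% of windows) was found for Spp1 and Mmp12, and an M-box (TCATGTG, in 3.77%) in the second window of Mmp12. The E-box CACGTG (in 7.15%) and the PPRE, the element of PPAR (in 0.0396%), were in none of the 10 windows. The sequences below run 5′ to 3′ from 250 bases before to 20 bases after the start. Trem2 and Cd9 are shown as LAM genes called up in the HH comparison, and Gpnmb and Itgax, chosen after their matches were seen, for their AP-1 letters, which are in capitals.
Trem2, chr17:48346151-48346420, forward strand: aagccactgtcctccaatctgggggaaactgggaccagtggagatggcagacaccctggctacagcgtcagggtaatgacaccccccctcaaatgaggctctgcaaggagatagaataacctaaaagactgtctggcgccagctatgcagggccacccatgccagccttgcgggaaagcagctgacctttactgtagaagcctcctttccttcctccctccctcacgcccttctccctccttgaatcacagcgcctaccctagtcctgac
Cd9, chr6:125494741-125495010, reverse strand: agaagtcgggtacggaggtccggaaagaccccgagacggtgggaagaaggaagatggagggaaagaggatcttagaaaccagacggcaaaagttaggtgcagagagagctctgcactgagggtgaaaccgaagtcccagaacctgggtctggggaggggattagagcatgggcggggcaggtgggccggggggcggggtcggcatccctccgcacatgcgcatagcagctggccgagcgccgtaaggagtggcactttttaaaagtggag
Gpnmb, chr6:49036268-49036537, forward strand: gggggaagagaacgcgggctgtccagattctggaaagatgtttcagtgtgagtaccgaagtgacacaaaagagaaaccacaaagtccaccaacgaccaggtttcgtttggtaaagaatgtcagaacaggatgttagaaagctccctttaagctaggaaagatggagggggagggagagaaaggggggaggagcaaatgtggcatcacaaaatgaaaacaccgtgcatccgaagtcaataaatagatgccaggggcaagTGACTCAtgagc
Itgax, chr7:128129300-128129569, forward strand: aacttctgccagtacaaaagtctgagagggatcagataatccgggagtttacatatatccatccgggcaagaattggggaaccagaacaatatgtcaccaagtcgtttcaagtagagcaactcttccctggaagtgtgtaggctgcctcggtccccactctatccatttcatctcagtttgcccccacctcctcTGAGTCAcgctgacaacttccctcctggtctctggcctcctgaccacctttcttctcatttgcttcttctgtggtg
Trem2 and Cd9 hold no match to the 5 motifs in these windows, and Itgax holds the AP-1 letters as read on the other strand. A match is a stretch of letters, not a bound site.

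Among the lysosomal genes, Gpnmb and Atp6v0d2 had the largest fold changes of the 9 in H. Gpnmb (ENSMUSG00000029816, forward strand, chr6:49036546-49070929) encodes a transmembrane glycoprotein of lysosomes and the surface of lipid-loaded macrophages. It stood at 9.80, 12.7 and 7.43 CPM in C and at 133, 370 and 40.1 CPM in H. In the WL groups of the short arm it stood at 7.41, 7.78 and 3.36 CPM in CC_s and at 45.6, 68.9 and 387 CPM in HC. The groups were apart in both comparisons. Gpnmb rose 18.1-fold in H (log2 fold change 4.18, SE 1.13, adjusted p = 0.0637) and was 27.0-fold higher in HC (4.75, SE 1.16, adjusted p = 0.490). Long-arm mice had 2.38 and 166 CPM in CC_l and 505 and 371 CPM in HH. It stood at 84.4 and 37.4 CPM in CCC and at 97.9 and 75.9 CPM in HHC. The CC_l mice differed widely from each other, and Gpnmb did not pass the test in HH (2.38, SE 1.28, adjusted p = 0.342) or in HHC (0.51, SE 1.22, adjusted p = 0.932).

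Atp6v0d2 (ENSMUSG00000028238, reverse strand, chr4:19876841-19922605) encodes a subunit of the proton pump that acidifies lysosomes, in a form that macrophages and osteoclasts use. It stood at 2.94, 2.18 and 0.63 CPM in C and at 35.97, 62.0 and 9.84 CPM in H, and the groups did not overlap. It stood at 2.38, 2.54 and 1.39 CPM in CC_s and at 9.41, 11.1 and 44.2 CPM in HC, again without overlap. It rose 18.8-fold in H (log2 fold change 4.23, SE 1.17, adjusted p = 0.0688) and was 10.2-fold higher in HC (3.35, SE 1.13, adjusted p = 0.536). After 25 weeks it stood at 0.37 and 32.7 CPM in CC_l and at 61.6 and 108 CPM in HH. It stood at 18.9 and 3.35 CPM in CCC and at 46.9 and 15.7 CPM in HHC, which overlapped. Neither long comparison passed the test (log2 fold change 2.37, SE 1.30, in HH and 1.49, SE 1.27, in HHC). Its ubiquitous paralog Atp6v0d1 was not called in any of the 4 comparisons, with log2 fold changes from -0.39 in HH to 0.51 in HHC.

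Itgax (ENSMUSG00000030789, forward strand, chr7:128129547-128150657) encodes CD11c, the integrin alpha chain that marks the macrophages recruited to obese fat and also dendritic cells. It stood at 7.19, 2.78 and 1.61 CPM in C and at 33.8, 61.6 and 20.4 CPM in H. It stood at 4.90, 4.18 and 4.82 CPM in CC_s and at 19.3, 17.2 and 70.0 CPM in HC. Itgax rose 10.0-fold in H (log2 fold change 3.33, SE 0.80, adjusted p = 0.0413) and was 7.66-fold higher in HC (2.94, SE 0.79, adjusted p = 0.536), without overlap in either comparison. In mice of the long arm it stood at 1.52 and 18.0 CPM in CC_l and at 62.7 and 65.8 CPM in HH. It stood at 12.1 and 5.71 CPM in CCC and at 34.2 and 15.2 CPM in HHC. Here too no HFD or WL mouse was below a control, but the log2 fold changes of 2.73 in HH (SE 0.95, adjusted p = 0.151) and 1.47 in HHC (SE 0.92, adjusted p = 0.584) were not called. Itgb2, which encodes the beta chain that pairs with CD11c, was called up in H (log2 fold change 3.18, SE 0.71), HC (3.09, SE 0.71) and HH (2.90, SE 0.86) and stood at 0.40 (SE 0.80) in HHC. Of the 50-base words of the Itgax exons, 8.02% are shared with its neighbour in sequence Itgad, so some reads may be split between them.

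The tetraspanins behaved less alike. Cd9 (ENSMUSG00000030342, reverse strand, chr6:125460266-125494791) encodes a surface tetraspanin that marks LAMs. It stood at 89.2, 73.5 and 33.0 CPM in C and at 134, 322 and 132 CPM in H, where it rose 3.00-fold (log2 fold change 1.59, SE 0.53, adjusted p = 0.134). After WL it stood at 78.7, 43.2 and 37.7 CPM in CC_s and at 68.4, 74.7 and 200 CPM in HC. The HC mice overlapped the controls, and the log2 fold change of 1.10 (SE 0.53, adjusted p = 0.571) was not called. In the long arm Cd9 stood at 27.5 and 61.0 CPM in CC_l and at 352 and 390 CPM in HH, a rise of 8.38-fold (3.07, SE 0.69, adjusted p = 0.0308). After WL it stood at 72.9 and 135 CPM in CCC and at 83.1 and 74.0 CPM in HHC, so that the HHC mice lay inside the range of their controls (-0.40, SE 0.64, adjusted p = 0.867). The related tetraspanin Cd81 was called up in H (log2 fold change 1.97, SE 0.40) and HH (2.05, SE 0.49), and stood at 0.70 (SE 0.39) in HC and -0.12 (SE 0.47) in HHC. Cd9 overlaps the genes Gm28809 and Gm26728 on the opposite strand, and the strand setting of the counting is not given in the sources used here, so reads of these genes cannot be told apart.

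Cd63 (ENSMUSG00000025351, forward strand, chr10:128900989-128912822) encodes a tetraspanin of late endosomes and lysosomes that most cells make. It stood at 455, 368 and 275 CPM in C and at 441, 906 and 313 CPM in H, and at 232, 349 and 280 CPM in CC_s and 404, 450 and 495 CPM in HC. The C and H mice overlapped and the HC mice were each above the CC_s mice. Its long-arm levels were 259 and 367 CPM in CC_l, 740 and 979 CPM in HH, 382 and 410 CPM in CCC and 268 and 452 CPM in HHC. It was not called in H (log2 fold change 0.60, SE 0.42), HC (0.65, SE 0.42), HH (1.46, SE 0.52, adjusted p = 0.157) or HHC (-0.14, SE 0.51). Of its exonic 50-base words, 11% are shared with Cd63-ps.

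Of the secreted proteins, Mmp12 had the largest fold change of the 9 genes in HC. Mmp12 (ENSMUSG00000049723, forward strand, chr9:7344381-7369499) encodes macrophage metalloelastase, which cuts elastin and other matrix proteins. It stood at 9.48, 4.56 and 1.79 CPM in C and at 65.5, 189 and 21.1 CPM in H, a rise of 17.5-fold (log2 fold change 4.13, SE 1.27, adjusted p = 0.102). It stood at 10.5, 2.13 and 3.80 CPM in CC_s and at 42.9, 69.0 and 550 CPM in HC, where it was 40.5-fold higher (5.34, SE 1.35, adjusted p = 0.529). Both HFD and WL mice of the short arm were above their controls throughout, and HC mouse 3 was the highest of the 20 mice. CC_l and HH mice held 0.61 and 38.1 CPM against 477 and 295 CPM. It stood at 30.5 and 12.4 CPM in CCC and at 166 and 52.9 CPM in HHC. The groups did not overlap in these comparisons either, yet Mmp12 was not called in HH (4.33, SE 1.57, adjusted p = 0.166) or in HHC (2.35, SE 1.44, adjusted p = 0.577). The gene Mmp1b overlaps Mmp12 on the opposite strand.

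Spp1 (ENSMUSG00000029304, forward strand, chr5:104435118-104441050) encodes osteopontin, a secreted ligand of CD44 and of integrins that draws in macrophages. It stood at 20.3, 8.78 and 2.69 CPM in C and at 19.4, 126 and 5.33 CPM in H, which overlapped (log2 fold change 2.25, SE 1.31). It stood at 0.13, 4.10 and 0.13 CPM in CC_s, where the values of 0.13 rest on 2 counts each, and at 3.505, 7.07 and 52.1 CPM in HC (3.77, SE 1.43, adjusted p = 0.541). The CC_s mouse at 4.10 CPM lay above the lowest HC mouse. Its long-arm levels were 3.42 and 11.3 CPM in CC_l, 49.3 and 133 CPM in HH, 52.0 and 4.06 CPM in CCC and 8.55 and 6.35 CPM in HHC. Spp1 was not called in HH (3.64, SE 1.71) or in HHC (-1.91, SE 1.60), and CCC mouse 1 alone set the sign in HHC: without it the log2 fold change was 0.87. Of its receptors, Cd44 was called up in HH (log2 fold change 3.35, SE 1.01) and not in H (1.76, SE 0.77), HC (1.95, SE 0.78) or HHC (2.13, SE 0.96, adjusted p = 0.441), and Itgav was called in none of the 4 comparisons. Spp1 shares 11.6% of its exonic 50-base words with the overlapping gene Gm42793.

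Lgals3 (ENSMUSG00000050335, forward strand, chr14:47367751-47386160) encodes galectin-3, a sugar-binding protein that macrophages and other cells secrete. It stood at 57.9, 47.0 and 369 CPM in C and at 349, 275 and 210 CPM in H, and at 245, 253 and 275 CPM in CC_s and 287, 262 and 337 CPM in HC. In both comparisons the groups overlapped, and C mouse 3 was above each H mouse. Its long-arm levels were 188 and 257 CPM in CC_l, 366 and 411 CPM in HH, 273 and 44.8 CPM in CCC and 472 and 240 CPM in HHC. Lgals3 was called in none of the 4 comparisons, with log2 fold changes of 0.82 in H (SE 0.67), 0.20 in HC (SE 0.67), 0.80 in HH (SE 0.82) and 1.16 in HHC (SE 0.83). Without C mouse 3 it was called up in H (2.40).

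Counted by mice, 6 of the 9 genes were higher in each H mouse than in each C mouse, where 13.4% of all genes tested were. The corresponding numbers were 6 of 9 in HC, where 8.01% of all genes were, 9 of 9 in HH, where 26.3% were, and 2 of 9 in HHC (Mmp12 and Itgax), where 8.49% were. Between the control groups, which differ in age and in kind of chow, 0 of 9 genes were called in CC_s against C, where 0.592% of all genes were called up and 1.85% down. In CCC against CC_l 0 of 9 were called, where 0.755% were called up and 1.91% down. DESeq2 called 0 of 9 in each as well, and 0 of 9 had a nominal p under 0.05 in edgeR in either, where 11.2% and 11.5% of all genes did. The 2 CC_l mice were far apart for Trem2, Gpnmb, Mmp12, Atp6v0d2 and Itgax, with 166 CPM of Gpnmb in CC_l mouse 2 and 2.38 CPM in CC_l mouse 1, the library with spermatid RNA. They were closer for Cd63 (259 and 367 CPM) and Lgals3 (188 and 257 CPM).

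Whether the WL effect differed in size from the HFD effect was tested as a difference of effects, each WL effect minus the HFD effect of its own arm. The HFD and WL groups were different mice, and each arm had a single time point after the switch to chow. How long the genes stayed high was therefore not tested. In the short arm, the HC effect differed from the H effect by -0.89 (Atp6v0d2) to 1.53 (Spp1) on the log2 scale, with a median of -0.04 where all genes had 0.31. For Trem2 the difference was -0.04 with a 95% interval from -2.94 to 2.86, and for Itgax it was -0.39 (-2.59 to 1.81), intervals that hold both a marked loss and a marked gain. None of the 9 differences passed an adjusted p of 0.05 in edgeR or in DESeq2, and 0 of 9 had a nominal p under 0.05 in edgeR, where 9.83% of all genes had one as higher and 2% as lower and 0% passed the adjusted threshold.

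In the long arm, 8 of the 9 differences were below 0, where 49.7% of all genes were, and their median was -1.87 where that of all genes was 0.01. Cd9 had the smallest p, with a difference of -3.47 (SE 0.92, 95% interval -5.42 to -1.52, adjusted p = 0.0839 in edgeR). Spp1 (-5.55, SE 2.33, adjusted p = 0.262) and Cd63 (-1.60, SE 0.72, adjusted p = 0.296) also had a nominal p under 0.05, as 10.8% of all genes did with a lower and 4.72% with a higher effect. Trem2 stood at -3.19 (SE 1.67, adjusted p = 0.370). None of the 9 passed the adjusted threshold in edgeR, where 0.792% of all genes passed as lower and 0.0233% as higher, and DESeq2 passed 1 of 9, Cd9, where it passed 4.58% of 17616 genes as lower and 2.23% as higher.

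The WL effects of both arms were compared in the same way, with arm and age differing as well as the length of the HFD. The HHC effect was below the HC effect for 8 of the 9 genes, where 63% of all genes were, with a median of -1.86 where all genes had -0.50. Gpnmb (-4.24, SE 1.65, adjusted p = 0.376) and Spp1 (-5.69, SE 2.17, adjusted p = 0.375) had a nominal p under 0.05, as 10.4% of all genes did with a lower and 1.39% with a higher effect. Trem2 stood at -3.23 (SE 1.54, adjusted p = 0.425). Without HC mouse 3 these differences were smaller, at -2.69 for Gpnmb, -3.69 for Spp1 and -1.92 for Trem2, and that of Spp1 was -2.89 without CCC mouse 1. None of the 9 passed the adjusted threshold, where 0% of all genes did. The HH and H effects did not differ at the adjusted threshold for any of the 9 genes, nor for any other gene tested in edgeR (0%), and 0 of the 9 had a nominal p under 0.05 in edgeR, where 3.36% of all genes had one as higher and 2.42% as lower. DESeq2 passed 0 of 9 in these 2 comparisons of effects.

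Single mice decided several calls. The share of all genes called is not given for the fits that leave out 1 mouse, so their counts stand without a background. Without H mouse 2, which had the highest Trem2, Gpnmb and Mmp12 levels in its group, 2 of 9 genes were called in H (Atp6v0d2 and Itgax), and without C mouse 3, 3 of 9 were (Gpnmb, Itgax and Lgals3). Without HC mouse 3, the library with the lowest adipocyte marker level, 2 of 9 genes were called in HC (Gpnmb, log2 fold change 3.20, and Mmp12, 3.36). Trem2 (2.48), Atp6v0d2 (2.27) and Itgax (1.97) were no longer called, and the other log2 fold changes were 1.78 for Spp1, 0.57 for Cd63, 0.42 for Cd9 and 0.085 for Lgals3. The HC effect was then below the H effect for 9 of the 9 genes, with differences from -0.022 (Cd63) to -1.96 (Atp6v0d2) that included -0.97 for Gpnmb, -0.46 for Spp1 and -0.76 for Mmp12, and none of these differences passed the adjusted threshold. With HC mouse 3 and CC_l mouse 1 both left out, 5 of 9 were called in HC, where 0.825% of all genes were called up. Without CC_s mouse 3, 3 of 9 were called. In HH, leaving out CC_l mouse 2 gave 6 of 9, with Trem2 at 7.55 and Gpnmb at 7.55, and leaving out CC_l mouse 1, HH mouse 1 or HH mouse 2 gave 1 of 9, Cd9. Without CC_l mouse 1 the log2 fold changes in HH were 2.61 for Cd9, 2.80 for Trem2, 3.35 for Mmp12, 3.02 for Spp1, 1.84 for Itgax, 1.41 for Gpnmb, 1.38 for Atp6v0d2, 1.24 for Cd63 and 0.61 for Lgals3. The difference between the HHC and HH effects was then -3.02 for Cd9, -2.24 for Trem2 and -4.93 for Spp1, and 0.10 for Atp6v0d2. In HHC, leaving out CCC mouse 1 gave 1 of 9, Lgals3 (2.99), and leaving out each of the other long-arm WL mice gave 0.

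**Figure D3:**
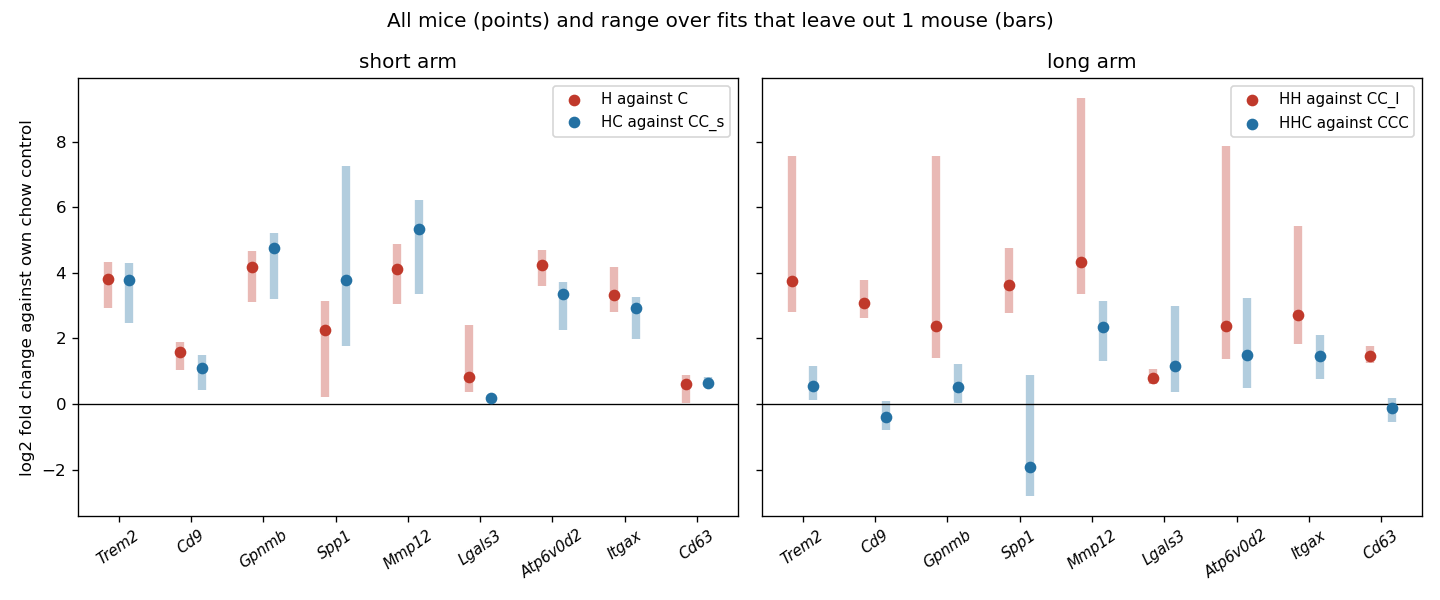
Log2 fold change of each LAM gene against its own chow control with all mice (points) and its range over the fits that leave out 1 mouse of the comparison (bars), short arm on the left and long arm on the right. The bars of H and HC stay above 0 for each gene, those of HH reach from 1.41 to 7.55 for Gpnmb, and in HHC the bars of Cd9, Spp1 and Cd63 cross 0.

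Genes that work with the 9 or belong to the same state moved alike in part. Of 20 further LAM genes, mostly lysosomal and lipid-handling, 7 were called up in H, 5 in HC, 8 in HH and 1 (Vat1) in HHC. In the same order, 3.57%, 1.57%, 4.92% and 0.447% of all genes tested were called up. None of the 20 was called down, where 2.92%, 0.172%, 1.88% and 2.67% of all genes were. Vat1 was called in HHC (log2 fold change 1.98, SE 0.50) and not on HFD or in HC. There it stood at 0.51 in H, 0.47 in HC and -0.04 in HH (SE 0.48). Each CCC mouse was below each CC_l mouse for Vat1 (-1.01, SE 0.49, not called). Cathepsin S (Ctss), a lysosomal protease, had a log2 fold change of 3.80 in H (SE 0.85), 3.20 in HC (SE 0.83), 4.30 in HH (SE 1.07) and 1.49 in HHC (SE 0.95), the last not called. Lipa, the lysosomal acid lipase that frees fatty acids from stored esters, had 2.73 in H (SE 0.59), 1.75 in HC (SE 0.57), 3.29 in HH (SE 0.74) and 0.96 in HHC (SE 0.68, not called). Capg, an actin-capping protein of macrophages, had 2.81, 2.06, 3.34 and 0.73 (SE 0.64, 0.62, 0.80 and 0.73, the last not called). Lpl, Fabp4 and Plin2, which adipocytes make in large amounts, were called in none of the 4 comparisons. Tyrobp, the signalling adaptor of TREM2 and other receptors, stood at 8.17, 8.19 and 5.19 CPM in C and at 83.3, 161 and 26.1 CPM in H. In CC_s it stood at 9.27, 5.00 and 8.11 CPM and in HC at 29.9, 29.0 and 72.6 CPM. Long-arm levels of Tyrobp were 8.84 and 17.8 CPM in CC_l, 178 and 234 CPM in HH, 32.02 and 23.8 CPM in CCC and 54.3 and 45.5 CPM in HHC. Each HFD or WL mouse was above each of its controls, and Tyrobp was called up in H, HC and HH and not in HHC, where the log2 fold change was 0.84 (SE 0.63, 95% interval -0.50 to 2.17). Apoe, a ligand of TREM2, was called in none of the 4, with log2 fold changes from -0.32 in HHC to 1.17 in HH.

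The general macrophage markers moved with the LAM genes. Of 10, 6 were called up in H, 6 in HC, 8 in HH and 0 in HHC, where 3.57%, 1.57%, 4.92% and 0.447% of all genes were. Their summed level was 182 to 305 CPM in C and 473 to 2936 CPM in H, and 155 to 182 CPM in CC_s and 433 to 1269 CPM in HC. It was 376 and 380 CPM in CC_l, 2790 and 3733 CPM in HH, 708 and 724 CPM in CCC and 626 and 1504 CPM in HHC. The HH mice and H mouse 2 held the most macrophage marker RNA, and the CCC mice held more than 2 of the 3 HC mice. Other cell types moved as well. Of 5 endothelial markers, 4 were called up in H, none in HC and 5 in HH, where 3.57%, 1.57% and 4.92% of all genes were. In HHC, 1 of the 5 was called down, where 2.67% of all genes were. There 5 of the 5 were lower with a nominal p under 0.05 in edgeR, as 10.7% of all genes had in either direction. Of 5 progenitor markers, 1, 1, 3 and 0 were called up in H, HC, HH and HHC, where 3.57%, 1.57%, 4.92% and 0.447% of all genes were. The summed adipocyte markers were 8313 to 13829 CPM in H against 13902 to 27804 CPM in C, and 9140 and 12012 CPM in HH against 22681 and 26478 CPM in CC_l. The 8 markers did not share the lower sum in H, where 4 had a log2 fold change above 0 and 4 below. Cfd fell from a mean of 10624 CPM in C to 785 CPM in H, and Lep rose from 1089 to 4413 CPM. In HH, 7 of the 8 had a log2 fold change below 0 and 1 above. The part of these changes in the LAM results was not tested.

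Set against the general macrophage markers, Gpnmb, Mmp12 and Atp6v0d2 were still higher in each HFD and WL mouse of the short arm than in its controls, whereas Trem2 and Itgax were apart after WL and not on HFD. Per 100 CPM of the 10 markers, Gpnmb stood at 3.22 to 4.53 CPM in C and 8.47 to 12.6 in H, and at 2.16 to 4.50 in CC_s and 10.5 to 30.5 in HC. Mmp12 stood at 0.98 to 3.11 in C and 4.46 to 6.45 in H, and at 1.17 to 6.35 in CC_s and 9.91 to 43.3 in HC. Atp6v0d2 stood at 0.34 to 0.96 in C and 2.08 to 3.41 in H, and at 0.90 to 1.45 in CC_s and 2.18 to 3.49 in HC. Trem2 stood at 1.47 to 3.26 in C and 3.04 to 6.95 in H, which overlapped, and at 0.86 to 3.54 in CC_s and 3.72 to 8.58 in HC. Itgax stood at 0.88 to 2.36 in C and 2.10 to 4.31 in H, which overlapped, and at 2.29 to 3.10 in CC_s and 3.94 to 5.52 in HC. In the long arm the ratios overlapped in HH for these 5 genes. In HHC they overlapped for Trem2, Gpnmb and Atp6v0d2, and not for Mmp12 (8.45 and 11.01 against 1.75 and 4.21 in CCC) or Itgax (2.27 and 2.42 against 0.81 and 1.67). The genes that many cell types make were lower against the macrophage markers in part of the comparisons. Cd63 stood at 131 to 151 in C and 30.9 to 66.0 in H, and at 141 to 192 in CC_s and 39.0 to 103 in HC. Cd9 and Lgals3 overlapped between C and H, and were lower in HC (15.8 to 17.1 and 26.5 to 66.3) than in CC_s (23.7 to 47.8 and 139 to 177). Spp1 overlapped in both comparisons. The sum of the 10 markers rests most on Lyz2, which held 70.6 to 129 CPM of 182 to 305 CPM in C. In H it held 266 to 1805 CPM of 473 to 2936 CPM. How far the ratios follow this gene was not tested. These ratios are descriptions without a test, and the share of all genes apart on this scale was not computed. In CPM, 13.4% of all genes tested were higher in each H mouse than in each C mouse. The shares were 8.01% in HC and 8.49% in HHC.

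**Figure D4:**
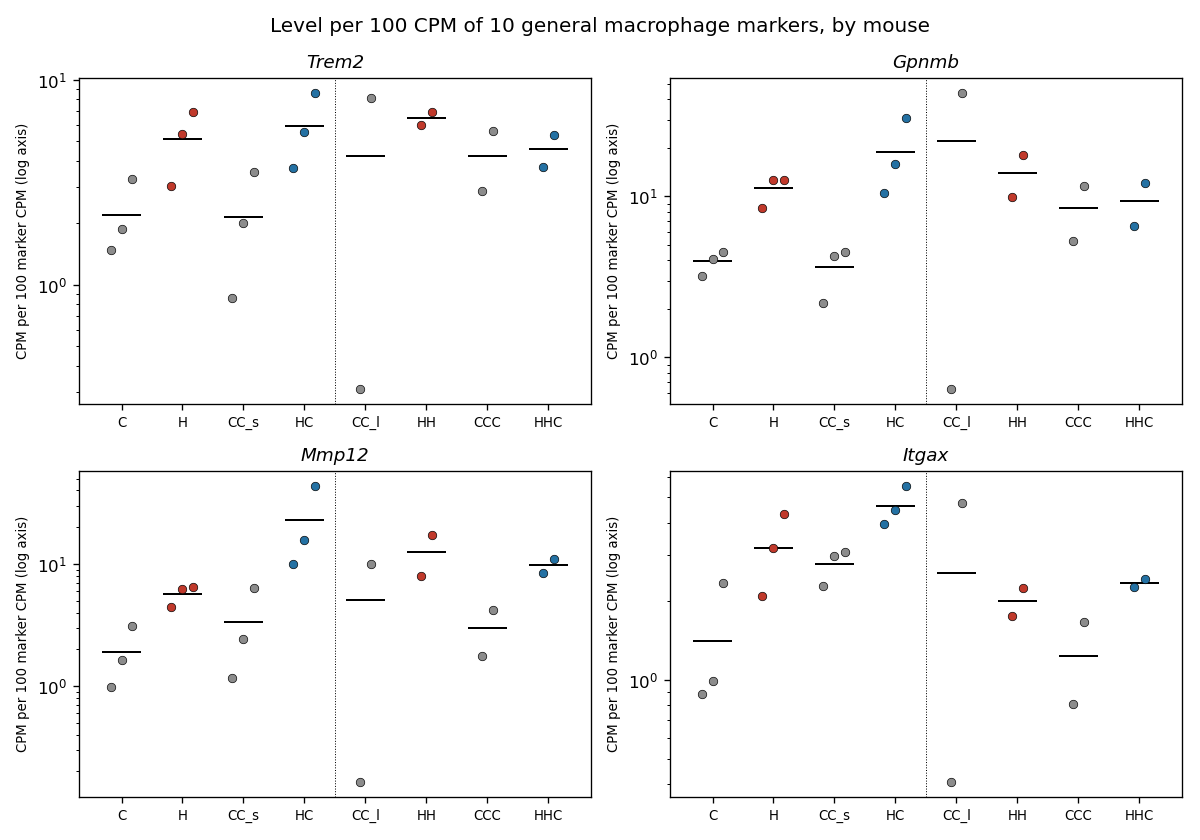
Level of Trem2, Gpnmb, Mmp12 and Itgax per 100 CPM of the 10 summed general macrophage markers in each of the 20 mice, on a log axis; points are mice, sorted by value within a group, short lines are group means, grey is chow, red HFD and blue WL, and the dotted line divides the arms. For Gpnmb the HC mice (10.5 to 30.5) lie above the CC_s mice (2.16 to 4.50), and the 2 CC_l mice stand at 0.63 and 43.7.

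Over the 20 libraries the 9 genes varied together to different degrees. The Pearson r of log2 CPM over the 36 pairs ranged from 0.105 to 0.978 with a median of 0.785, and that of deviations from the group means from -0.408 to 0.952 with a median of 0.636. Each r shares the libraries, their depth and their cell mixture. The closest pair was Trem2 and Gpnmb (0.978), and Lgals3 stood apart, with an r of 0.357 with the mean of the other 8 genes, where Trem2 had 0.976. The genes outside the 9 whose log2 CPM was most like their mean were Ctss (r = 0.970), Cd68 (0.962), Lipa (0.960), Capg (0.959), Il7r (0.959) and Cyba (0.954), over 20 libraries. Per kilobase of exon, levels in C ran from 99.4 ± 24.5 CPM (SD, n = 3) for Cd63 to 0.71 ± 0.43 for Atp6v0d2. In HH they ran from 201 and 266 CPM per kilobase for Cd63 to 13.04 and 13.69 for Itgax.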

How the data were processed

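TRAP–seq libraries of 20 mice in 8 groups were analysed. The authors trimmed reads with Trim Galore 0.6.6, aligned them to mm10 with HISAT2 2.2.1, assigned them to genes with featureCounts (Subread 2.0.1) and deposited whole-number counts per gene without normalization. The annotation, strand setting and pair handling are not given in the sources used here. Between 74.4% and 89.2% of the nonzero counts of a library were even numbers, so halved counts were an alternative. Samples were grouped by their labels, and no 2 libraries were duplicates.

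The deposited counts were fitted in R 4.3.3 with edgeR 4.0.16, which gave the log2 fold changes (filterByExpr, TMM, quasi-likelihood test, all 20 libraries in 1 fit, Benjamini-Hochberg adjustment over 21464 genes). The biological coefficient of variation was 0.680. Log2 CPM used a prior count of 2. Replicate numbers did not pair the mice (correlations of deviations of same-numbered mice from -0.277 to 0.282). The alternatives were DESeq2 1.42.0, RLE normalization, no filter, only the compared groups, a replicate block, halved counts and leaving out each mouse, and, chosen after seeing the data, leaving out 2 libraries with spermatid RNA. The procedure was run on simulated data for H against C alone, with the outcome not given here. That run does not cover the long arm or the differences of effects.

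The 9 genes, the marker lists and the lists of partners (7 genes) and further LAM genes (20) were chosen with earlier results of these data known. Named were the 9 genes, the partners, the 3 further LAM genes with the largest change in H among those called and the 6 genes most like the 9; other genes named in counts were chosen after their values were seen. Positions and exon lengths are from GENCODE vM21 on mm10, promoters from RefSeq. Figures were drawn with matplotlib 3.10.9.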

Additional observations from a re-analysis of the deposited data

How the results depend on the processing

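The directions of the 9 genes in H, HC and HH were kept under each alternative, and the number called moved. In H (6 called) it ranged from 2 to 6 when 1 mouse was left out, in HC (5 called) from 2 to 6, and in HH (2 called) from 1 to 6. Without a filter on low counts it was 7 in H and 7 in HC, where 3.25% and 4.94% of all genes were called up. With halved counts it was 4 in HC, where 1.3% of all genes were called up. In HH it was 7 without a filter on low counts, 5 in DESeq2 and 1 without the 2 libraries with the most spermatid RNA. In HHC (0 called) it was 4 without a filter and 1 in a fit of the compared groups alone, and 0 to 1 with 1 mouse left out. Between chow groups (0 called) it was 1 without a filter in both, 0 to 1 in CC_s against C and 0 to 3 in CCC against CC_l with 1 mouse left out. Without a filter 0.639% of all genes were called up and 5.19% down in CC_s against C, and 1.2% and 4.39% in CCC against CC_l. For the HHC effect against the HH effect (0 called) the number was 3 without a filter and 1 in DESeq2. Without a filter 1.27% of all genes passed there as higher and 2.4% as lower. For the HHC against the HC effect the number was 4 without a filter, where 0.11% passed as higher and 2.16% as lower. The replicate block gave 4 calls in H, 4 in HC and 1 in HH, where 2.82%, 0.815% and 3.83% of all genes were called up. It changed no other count, and the replicate numbers do not pair the mice. The cause of these changes was not tested.

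In HHC against CCC, the log2 fold change of Cd63 turned to 0.012 with halved counts, and with 1 mouse left out ranged from -0.56 to 0.18, that of Cd9 from -0.78 to 0.10 and that of Spp1 from -2.81 to 0.87. The HC effect minus the H effect of Trem2 turned from -0.04 to 0.15 under RLE, 0.17 without a filter, 0.42 under the replicate block, 0.0649 with the fit of compared groups alone and 0.15 in DESeq2, and Cd63 turned to -0.015 with halved counts. Without the 2 spermatid libraries, this difference was -0.98 for Gpnmb, -0.47 for Spp1, -0.77 for Mmp12 and -0.026 for Cd63. With 1 mouse left out it ranged from -1.34 to 0.87 for Trem2, -1.16 to 0.079 for Cd9, -0.97 to 1.64 for Gpnmb, -0.46 to 5.02 for Spp1, -0.76 to 2.30 for Mmp12, -1.35 to 0.12 for Itgax and -0.23 to 0.60 for Cd63. The HHC minus the HH effect of Atp6v0d2 was 0.11 without the spermatid libraries and ranged from -6.37 to 0.84 with 1 mouse left out, and that of Lgals3 from -0.44 to 2.16.

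RLE moved the median of all genes by -0.15 in CC_s against C, 0.15 in the HHC minus HH and 0.12 in the HHC minus HC effects. Where leaving out a mouse left 1 mouse in a group, that mouse was assumed to vary like the other groups. With 2 or 3 mice a group, intervals span several log2 units, so a gene not called is not shown to be back at its control level.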

Other observations

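Markers of other cells that a lysate of epiAT can hold were counted beside the LAM genes. Among all genes tested, 3.57% were called up and 2.92% down in H, and 1.57% and 0.172% in HC. In HH the shares were 4.92% and 1.88%, and in HHC 0.447% and 2.67%. Of 3 tested neutrophil markers, 1 was called up in H, where the summed level of the 5 listed was 53.4 to 232 CPM against 1.85 to 8.95 CPM in C, and none was called in HC, HH or HHC. The sum in H was nearly all S100a8, at 52.4 to 228 CPM. The highest levels of the others in H were 3.75 CPM for Csf3r, 0.60 for S100a9, 0.096 for Ly6g and 0 for Retnlg. Of 7 perivascular macrophage markers, 1 was called up in H, 0 in HC and 3 in HH, and 1 was called down in HHC. Of 5 dendritic cell markers, which share Itgax expression with LAMs, 1 was called up in HH and none in H, HC or HHC. None of 5 lymphocyte markers was called in the 4 comparisons. Of 5 mesothelial markers, 2 were called down in H and 1 in HHC. Of 8 adipocyte markers, 1 was called up and 1 down in H and 1 down in HH. Of 5 spermatid genes, 3 were called up in HC, where their summed level was 434 CPM in HC mouse 3. It was 3.06 and 7.23 CPM in HC mice 1 and 2, and 0.13 to 5.43 CPM in CC_s.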
